A study of Mus musculus with 5 samples.

Results

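Ly6a, Ly6e, Ly6c1, Ly6c2, Ly6i and Gpihbp1 are mouse genes of the Ly6/uPAR family, which encode small proteins of the cell surface. These 6 genes, of 16498 in the deposited single-cell table, were picked by name, with earlier results of the same libraries known. Their levels and their differences between cell types and groups are therefore given as a description and no p-value is attached to them. The table holds aortic arch cells from mice with atherosclerosis in 2 groups. The Apoe-/- group (2 libraries, genotype Oasl1+/+Apoe-/-) lacked apolipoprotein E, which leaves lipoproteins in the blood and lets plaques form. The other group (3 libraries labelled Oasl1-/-Apoe-/-) shared that deletion and also carried an Oasl1 allele without the promoter region and exon 2. Oasl1 encodes an interferon-induced member of the oligoadenylate synthetase-like proteins. All mice were on a C57BL/6 background and ate normal chow for 28 weeks. Cells of aortic arches from pooled mice were sorted by DAPI exclusion to keep live cells. The deletion is present in every cell type, so a difference in endothelial cells is not by itself a property of endothelial Oasl1. Nothing in the labels says whether the libraries of a group came from separate pools of mice, so the spread between them may be technical.

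Proteins of this family share the compact, disulfide-bonded Ly6/uPAR fold, and most are held in the outer membrane by a glycosylphosphatidylinositol (GPI) anchor. Several are used as antigens in mouse immunology: Ly6a is Sca-1, a marker of stem cells, endothelium and activated lymphocytes, and Ly6C, the product of Ly6c1 and Ly6c2, separates classical from patrolling monocytes. Interferons raise Ly6a, Ly6e and Ly6C in many cell types. Gpihbp1 stands apart in function, since it binds lipoprotein lipase and carries it across capillary endothelium, where the enzyme releases fatty acids from triglyceride.

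Each level below is the mean over cells of unique molecular identifiers (UMIs, which count captured mRNA molecules) per 10000 UMIs of the cell, written CP10K. The table held 18260 cells, between 3212 and 4338 a library, with 16959976 to 19813039 UMIs a library and a median of 4495 to 5186.5 UMIs a cell. The median mitochondrial percent was 4.91 and 5.0 in the Apoe-/- libraries against 4.03, 3.95 and 3.9 in the others, without overlap. The labels name no batch, so handling of the libraries cannot be told apart from group. Between 6 and 22 barcodes were common to each pair of libraries, 165 in all, and the results that depended on these cells are named in the closing section. Cells were clustered without the 6 genes and named from marker genes. The endothelial class held 1418 cells, macrophages 2356, monocytes 527, natural killer and T (NK/T) cells 723, fibroblasts 1012 and smooth muscle cells 9332, while 1965 cells stayed unnamed. Oasl1 itself was counted with 27 and 16 UMIs in Apoe-/- and with 299, 257 and 315 in the other libraries, so it was higher where the label names its deletion. Which part of the Oasl1 transcript these tags come from was not examined. The genotype is therefore unchecked here, and every group contrast below rests on the labels as given.

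All 6 genes lie on chromosome 15 (mm10/GRCm38). Ly6e (chr15:74955051-74959905, plus strand), Ly6i (chr15:74979534-74983430, minus), Ly6a (chr15:74994877-74998031, minus), Ly6c1 (chr15:75044018-75048830, minus) and Ly6c2 (chr15:75108158-75111970, minus) fall within 157 kb, and Gpihbp1 (chr15:75596628-75599481, plus) starts 485 kb beyond the end of Ly6c2. Ly6c1 and Ly6c2 transcripts were 97.6% identical over 822 aligned bases, and 98% identical over 293 aligned bases of their last 300, where 3′ reads fall, with a longest common run of 124 bases. Reads that lie inside such a run cannot be assigned to one of the pair, so the split between Ly6c1 and Ly6c2 is uncertain. Ly6a and Ly6i were next at 87.4% identity, while Ly6e and Gpihbp1 were at 58.3% to 63.9% with every other member. No other pair of members had a common run above 49 bases in the last 300.

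The sequence before the start of Ly6c1 and of Ly6c2 is shown because these nearly identical transcripts were counted in different cells. The 250 bases upstream of each start (RefSeq, GRCm38.p6) were aligned, with 164 of 216 aligned bases the same (75.9%). Capitals mark the 86 bases of each sequence that had no identical partner in the alignment, either a different base or no base at all.
Ly6c1, chr15:75048838-75049087, minus strand: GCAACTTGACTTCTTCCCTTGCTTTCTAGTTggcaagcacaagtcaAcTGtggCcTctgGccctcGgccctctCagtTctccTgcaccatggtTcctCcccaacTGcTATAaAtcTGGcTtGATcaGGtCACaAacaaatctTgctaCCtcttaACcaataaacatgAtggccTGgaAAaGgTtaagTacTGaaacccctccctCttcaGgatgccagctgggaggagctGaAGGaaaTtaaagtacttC
Ly6c2, chr15:75111972-75112221, minus strand: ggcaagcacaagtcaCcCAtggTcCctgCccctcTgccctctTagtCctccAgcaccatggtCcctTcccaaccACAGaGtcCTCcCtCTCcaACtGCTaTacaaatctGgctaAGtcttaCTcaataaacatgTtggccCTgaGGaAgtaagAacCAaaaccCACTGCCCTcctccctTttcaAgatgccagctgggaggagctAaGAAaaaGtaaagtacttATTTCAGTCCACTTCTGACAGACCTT
Lower-case stretches run through both sequences, and the longest run of capitals lies at the upstream end for Ly6c1 and next to the start for Ly6c2. These end runs are for the most part overhang, where a window extends past the other and nothing was aligned. They do not show that the bases there differ. Windows of 300 bases around the starts were searched on both strands for the interferon-stimulated response element (GAAA, any 2 bases, GAAA), the gamma-activated sequence (TTC, any 3 bases, GAA) and the NF-kappaB site (GGGA, any base, TTTCC). Of 32851 promoters of this length, 3.44% held the first, 8.3% the second and 0.411% the third. None of the 2 windows of Ly6c1 and none of the 2 windows of Ly6c2 held any of them, which says only that these letters are not in these windows.

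Each gene had its own order of cell types. Ly6a was highest in endothelial cells and fibroblasts, which overlapped in the Apoe-/- libraries (14.8 to 15.6 and 14 to 15.6 CP10K) and were separate in the libraries labelled Oasl1-/-Apoe-/- (26.3 to 28.3 and 17.5 to 20). Below them came B cells, NK/T cells, dendritic cells, monocytes and macrophages in the Apoe-/- libraries, where dendritic cells and monocytes overlapped and macrophages, at 0.0955 to 0.157, lay lower than both. In the libraries labelled Oasl1-/-Apoe-/- that lower order changed: macrophages (5.76 to 6.54) overlapped with NK/T cells (5.46 to 6.21) and lay above monocytes (3.51 to 3.88). Ly6e was the most widely detected member. It was highest in B cells and endothelial cells, which overlapped in the Apoe-/- libraries, while in the labelled libraries endothelial cells (21.3 to 22.6) lay above B cells (16.5 to 20.9). Ly6c1 was counted mainly in endothelial cells (9.30 to 10.6 CP10K in the Apoe-/- libraries) and fibroblasts (4.97 to 5.04), with no library of any other named class above 0.719. Ly6c2 was instead counted in monocytes and NK/T cells, which overlapped in the Apoe-/- libraries (2.70 to 3.69 and 3.38 to 3.79) and did not in the libraries labelled Oasl1-/-Apoe-/- (10.5 to 14.4 and 3.52 to 6.20). Ly6i was led by monocytes in both groups, with dendritic cells next and no overlap between these classes. Gpihbp1 was counted in endothelial cells and lymphatic endothelial cells. These are orders of clustered classes, and some changed with marker gates on single cells. Gated fibroblasts then had more Ly6a (17.2 and 16.6 CP10K) than endothelial cells (16 and 14.5) in the Apoe-/- libraries. In the labelled libraries these classes overlapped for Ly6a, and B cells overlapped endothelial cells for Ly6e. In the Apoe-/- libraries, gated monocytes had more Ly6c2 (5.93 and 7.78) than NK/T cells (3.36 and 3.76). Ly6c1 reached 0.863 in gated neutrophils.

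**Figure D1:**
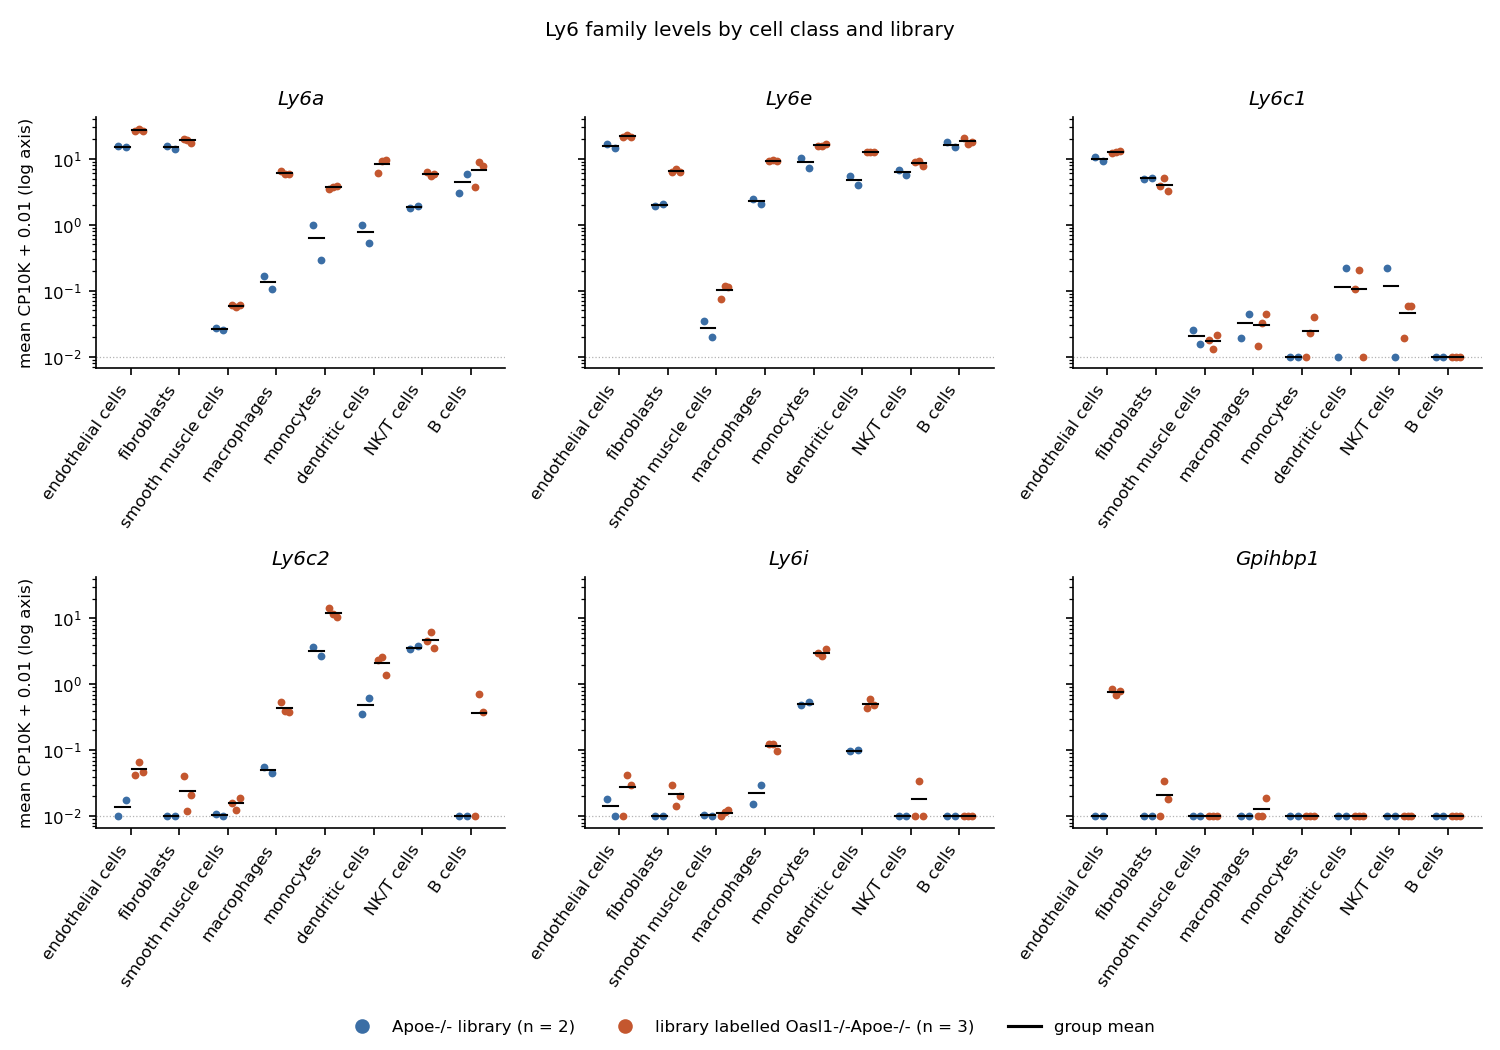
Mean CP10K (vertical log axis, 0.01 added so that 0 can be drawn at the dotted line) of each member in 8 cell classes, with 1 point per library, blue for Apoe-/- and orange for libraries labelled Oasl1-/-Apoe-/-, and black bars for group means. Ly6c1 stands high in endothelial cells and fibroblasts, Ly6c2 in monocytes and NK/T cells, and the Ly6a points of the groups are farthest apart in macrophages.

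Endothelial cells line the vessel and carried Ly6a, Ly6e and Ly6c1. Ly6a measured 15.6 and 14.8 CP10K in the Apoe-/- libraries and 26.3, 28.3 and 26.6 in the libraries labelled Oasl1-/-Apoe-/-. The means were 15.2 ± 0.565 (SD, n = 2) and 27.1 ± 1.06 (SD, n = 3), a log2 difference of 0.84 (SE 0.0707) on the scale log2(CP10K + 0.05). Every labelled library lay above both Apoe-/- libraries, and the share of endothelial cells with a Ly6a UMI was 67.9% against 88.6%, or 50.7% against 72.5% once each cell was thinned to 1000 UMIs. Ly6c1, the endothelial form of Ly6C, was at 10.6 and 9.30 CP10K against 12.3, 12.8 and 13.2. Its means of 9.95 ± 0.909 (SD, n = 2) and 12.7 ± 0.44 (SD, n = 3) differed by 0.36 (SE 0.0822) on the log2 scale. This was the smallest of the endothelial differences, and it was 0.27 without the second Apoe-/- library and 0.20 by limma-voom. Ly6e, a surface protein known for limiting the entry of some viruses, was at 16.7 and 14.3 against 21.3, 22.6 and 21.5 CP10K. The means were 15.5 ± 1.68 (SD, n = 2) and 21.8 ± 0.73 (SD, n = 3), and the log2 difference was 0.50 (SE 0.0743).

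The limma fit over 9431 genes in endothelial cells called all 4 of the members it tested higher, where 2.16% of all genes were called higher and 0.997% lower, and the 4 include Gpihbp1, which is listed at 0 in the Apoe-/- libraries. The groups did not overlap for any of these 4, against 13.5% of all genes that were higher without overlap. The members' median log2 difference was 0.67, beside -0.01 over all genes tested. Gpihbp1 passed the filter on low values only through the labelled libraries. Because the members were also picked on this contrast, nothing is read from these counts. In smooth muscle cells as clustered, 0.581% (Wilson 95% interval 0.409% to 0.823%) and 2.33% (1.91% to 2.84%) of cells had a Ly6a UMI. Their medians were 4778 and 5029 UMIs a cell, against 2750 and 3467 in endothelial cells. With marker gates on single cells 2.34% and 9.43% of smooth muscle cells had a Ly6a UMI, so the share depends on how cells are assigned. The fibroblast marker list summed to 8.55 to 9.27 CP10K in the endothelial cells of the Apoe-/- libraries and 13.9 to 20.4 in the others, with 4 of 8 markers higher without overlap. The macrophage list summed to 0.395 to 0.605 and 0.935 to 1.41 (6 of 9 markers higher), and the erythroid list to 3.92 to 38.3 and 0.371 to 0.628 (5 of 5 lower). None of the fibroblast, macrophage or erythroid markers was at 0 in all 5 libraries. In fibroblasts the fibroblast list summed to 216 to 251 CP10K. The part of other cells' RNA in the endothelial differences was not tested.

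Within the endothelium the members differed between sub-clusters. Ly6a was highest in sub-cluster 7, led by Cst6, at 31.1 and 26.7 CP10K in the Apoe-/- libraries and 54.2, 43.0 and 48.2 in the libraries labelled Oasl1-/-Apoe-/-. It was lowest in sub-cluster 4, led by Sfrp2, at 5.28 and 5.48 against 9.11, 14.2 and 17.5. Both ends of the endothelial range thus had higher Ly6a in every labelled library than in either Apoe-/- library. Over the 8 sub-clusters with at least 10 cells in every library, Ly6a was higher without overlap in 6, Ly6e in 7 and Ly6c1 in 2. Ly6c1 overlapped between the groups in the other 6 sub-clusters. The share of all genes higher without overlap was 13.5% in the whole endothelial class and was not computed for single sub-clusters. Nothing is read from these counts. The parent clusters showed the same for Ly6a, which was at 14.6 and 13.5 against 22, 23.8 and 25.3 CP10K in the cluster led by Adh7 and Ptprb. In the cluster led by Emcn and Plvap it was at 17.6 and 20.7 against 30.6, 31.5 and 23. Ly6a and Ly6c1 were found together in single cells: among cells thinned to 1000 UMIs, 71.0% of those with a Ly6c1 UMI also had Ly6a and 36.2% of those without it did, in the Apoe-/- libraries, and 86.0% and 59.3% did in the others. Cells of 1 library share its RNA background, so these shares are a description.

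**Figure D2:**
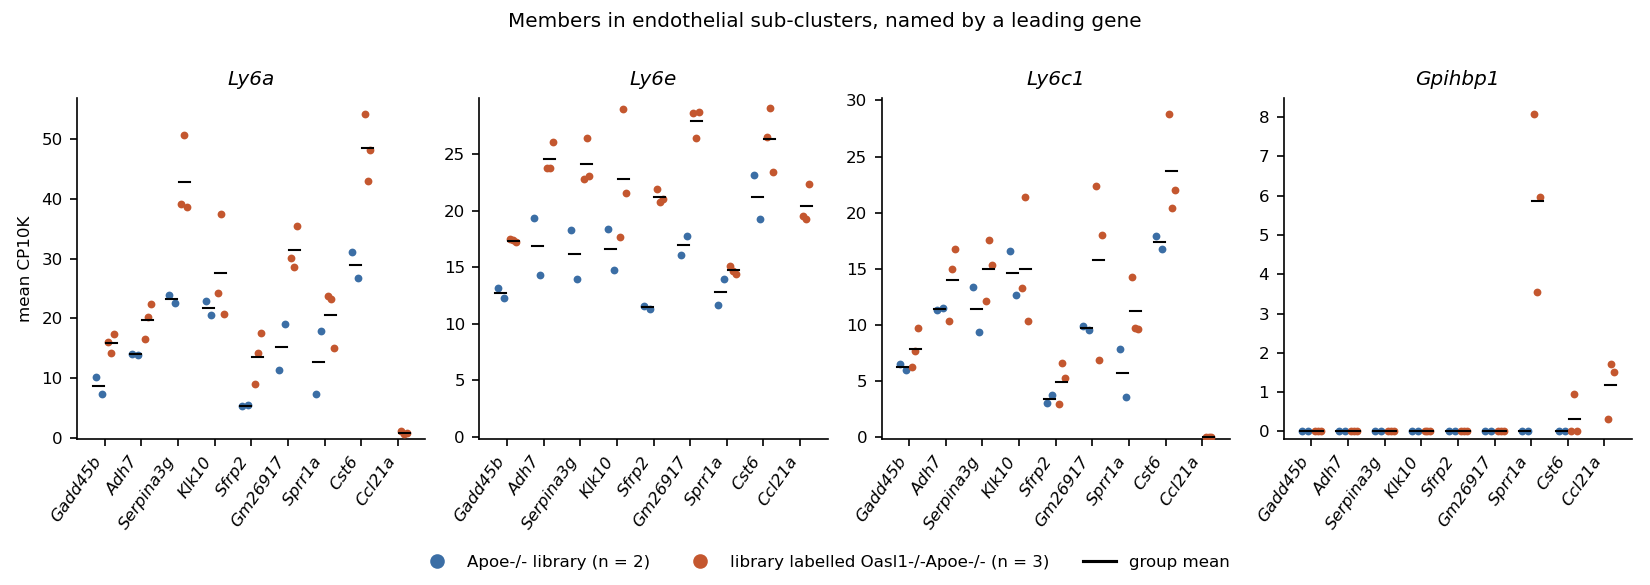
Mean CP10K (vertical linear axes, each with its own range) of 4 members in the endothelial sub-clusters with at least 10 cells in every library, named by 1 leading gene each, and in the lymphatic endothelial cells (Ccl21a), with 1 point per library (blue Apoe-/-, orange labelled Oasl1-/-Apoe-/-) and black bars for group means. Ly6a and Ly6c1 peak in the Cst6 sub-cluster, both are near 0 in lymphatic endothelial cells, and Gpihbp1 stands above 0 in the Sprr1a sub-cluster and in lymphatic endothelial cells of the labelled libraries.

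Lymphatic endothelial cells, 28 in all, came wholly from the libraries labelled Oasl1-/-Apoe-/- (10, 9 and 9 cells). They had Ly6e at 19.5, 19.3 and 22.4 CP10K, which overlapped with the 21.3 to 22.6 of the other endothelial cells of those libraries. Ly6a was far lower in them, at 1.13, 0.756 and 0.803 CP10K, and no Ly6c1 UMI was counted in any of the 28 cells, which allows a share of cells with one of up to 10.7%, so both of these members separated blood from lymphatic endothelium while Ly6e did not.

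Gpihbp1, the carrier of lipoprotein lipase, was counted in few cells. In endothelial cells of the labelled libraries its level was 0.83, 0.687 and 0.771 CP10K (0.763 ± 0.072, SD, n = 3), and there 2.84% of 668 endothelial cells had a UMI. It is listed at 0 in both Apoe-/- libraries. Genes seen in very few cells of a library appear to have been set to 0 in the deposited values: in the first Apoe-/- library 12 genes had exactly 1 positive cell and 115 had 2, against 409 with 3. A listed 0 may therefore hide a few cells, and no fold or limit is given. In all, 42 cells held the 283 Gpihbp1 UMIs, and 18 of them, with 210 UMIs, belonged to endothelial sub-cluster 6. That sub-cluster was led by Sprr1a, Rgcc and Ccl2 and also by Igfbp3, Angptl4 and Fabp4, the last of which encodes a fatty acid carrier of capillary endothelium. The 18 cells came from every labelled library (5, 7 and 6 cells with 60, 45 and 105 UMIs), and single cells held up to 24, 19 and 59 UMIs. Lymphatic endothelial cells added 10 cells with 15 UMIs, at 0.307, 1.71 and 1.51 CP10K, and cells without a name another 8 with 47 UMIs. Sub-cluster 6 made up 4.05% and 2.63% of endothelial cells in the Apoe-/- libraries (15 and 10 cells) and 10.3%, 17.2% and 12.9% in the others (24, 40 and 26 cells). With so few of these cells in the Apoe-/- libraries, fewer cells and less Gpihbp1 per cell cannot be told apart.

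Genes that act with lipoprotein lipase were read for comparison. Of 17 listed partners 13 were in the table and 9 were tested in endothelial cells, of which 3 rose and none fell, where 2.16% of all genes were called higher and 0.997% lower, with a median log2 difference of 0.12 beside -0.01 over all genes tested. Lpl, the lipase itself, was at 0.0481 and 0.0605 CP10K against 0.212, 0.319 and 0.326 (log2 difference 1.67, SE 0.3, limma adjusted p = 5.7e-05 over all genes). Cd36, a fatty acid and lipoprotein receptor, was at 0.0665 and 0.0444 against 0.494, 0.395 and 0.241 (1.98, SE 0.292, limma adjusted p = 7.8e-07). Fabp4 was at 3.07 and 2.86 against 10.6, 8.39 and 7.75 (1.56, SE 0.103, limma adjusted p = 4.8e-20). All 3 were higher in every labelled library, and sub-cluster 6 held much of that difference. With this sub-cluster left out, a step chosen after seeing the data, 1 of 8 partners tested was called, Fabp4, at 1.09 and 1.60 against 2.75, 2.25 and 2.52 CP10K. Lpl (log2 difference 0.39) and Cd36 (-0.21) then overlapped between the groups. The differences of Ly6a (0.88), Ly6e (0.56) and Ly6c1 (0.37) were as large without these cells as with them. Inside the sub-cluster Lpl was at 0.308 and 0 against 1.24, 1.45 and 2.1 CP10K and Cd36 at 0.924 and 1.52 against 4.81, 2.18 and 1.86, both higher without overlap. Fabp4 overlapped there, at 50.0 and 49.6 against 79.6, 38.0 and 42.9 CP10K. A single thinning of every cell to 1000 UMIs also left Fabp4 as the sole partner called.

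Macrophages, the phagocytes that take up lipid in plaques, showed the widest gap of any class for Ly6a. It was at 0.157 and 0.0955 CP10K in the Apoe-/- libraries and 6.54, 5.77 and 5.76 in the libraries labelled Oasl1-/-Apoe-/-. The means of 0.126 ± 0.0433 (SD, n = 2) and 6.02 ± 0.451 (SD, n = 3) differed by 5.13 (SE 0.122) on the log2 scale, which with an offset of 0.5 in place of 0.05 CP10K was 3.38. Macrophages with a Ly6a UMI made up 3.51% (Wilson 95% interval 2.30% to 5.30%) against 41.5% (39.2% to 43.8%), and 0.835% against 24.8% at 1000 UMIs a cell, so the gap was in the number of cells with a UMI as well as in the mean. For comparison, smooth muscle cells at 1000 UMIs had 0.113% and 0.630%, or 1.08% and 4.7% with marker gates on single cells. Ly6e was at 2.47 and 2.03 against 9.22, 9.42 and 9.36 CP10K, with means of 2.25 ± 0.312 (SD, n = 2) and 9.33 ± 0.1 (SD, n = 3) and a log2 difference of 2.03 (SE 0.0759). Ly6c2 was at 0.0455 and 0.0359 against 0.526, 0.382 and 0.375 (2.38, SE 0.167). Ly6i, by sequence the closest relative of Ly6a here, was at 0.00526 and 0.0202 against 0.115, 0.114 and 0.0881 (1.32, SE 0.183), a difference that ran from 0.24 to 2.42 with offsets of 0.5 and 0.01 CP10K. All 4 members had groups apart by far more than their spread, while Ly6c1 had at most 0.0349 CP10K in any macrophage library.

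Of 7901 genes tested in macrophages limma called 8.59% higher and 8.07% lower, and 20.5% were higher without overlap between the groups. All 4 of the members tested, which were picked on this contrast, were called higher, with a median log2 difference of 2.21 beside -0.01 over all genes. Ly6c2 and Ly6i passed the filter on low values only through the labelled libraries, which tilts this count and median upward. The endothelial markers summed to 0.259 to 0.265 CP10K in macrophages of the Apoe-/- libraries and 0.186 to 0.264 in the others, and the monocyte list to 0.536 to 0.758 and 0.625 to 0.665. The fibroblast list summed to 0.216 to 0.255 and 0.329 to 0.432 (2 of 8 markers higher without overlap, Pdgfra at 0 in all libraries). In fibroblasts the same list summed to 216 to 251. The part of other cells' RNA in the macrophage differences was not tested.

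The macrophage class fell into a pair of clusters, and the shares of these clusters differed between the groups. The cluster led by Gpnmb, Trem2 and Lpl, genes of lipid-laden macrophages, held 79.7% and 78.5% of the class in the Apoe-/- libraries and 45.7%, 44.9% and 43.7% in the others. The cluster led by Ccl12 and Ccl8, which encode chemokines that attract monocytes, held the rest. Ly6a was higher without overlap in each. In the Gpnmb cluster it was at 0.0655 and 0.0707 against 1.81, 1.42 and 1.24 CP10K. In the Ccl12 cluster it was at 0.516 and 0.186 against 10.5, 9.31 and 9.26. The labelled libraries of the Gpnmb cluster were thus above the Apoe-/- libraries of the Ccl12 cluster. Ly6e followed the same order, at 1.91 and 1.83 against 5.39, 5.20 and 5.43 in the Gpnmb cluster and 4.69 and 2.78 against 12.4, 12.9 and 12.4 in the Ccl12 cluster. Weighting both clusters alike in every library gave log2 differences of 4.51 for Ly6a, 1.68 for Ly6e, 2.34 for Ly6c2 and 1.06 for Ly6i, all without overlap. Among thinned macrophages of the labelled libraries, 37.9% of cells with a Ly6e UMI had Ly6a and 12.6% of those without it did.

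**Figure D3:**
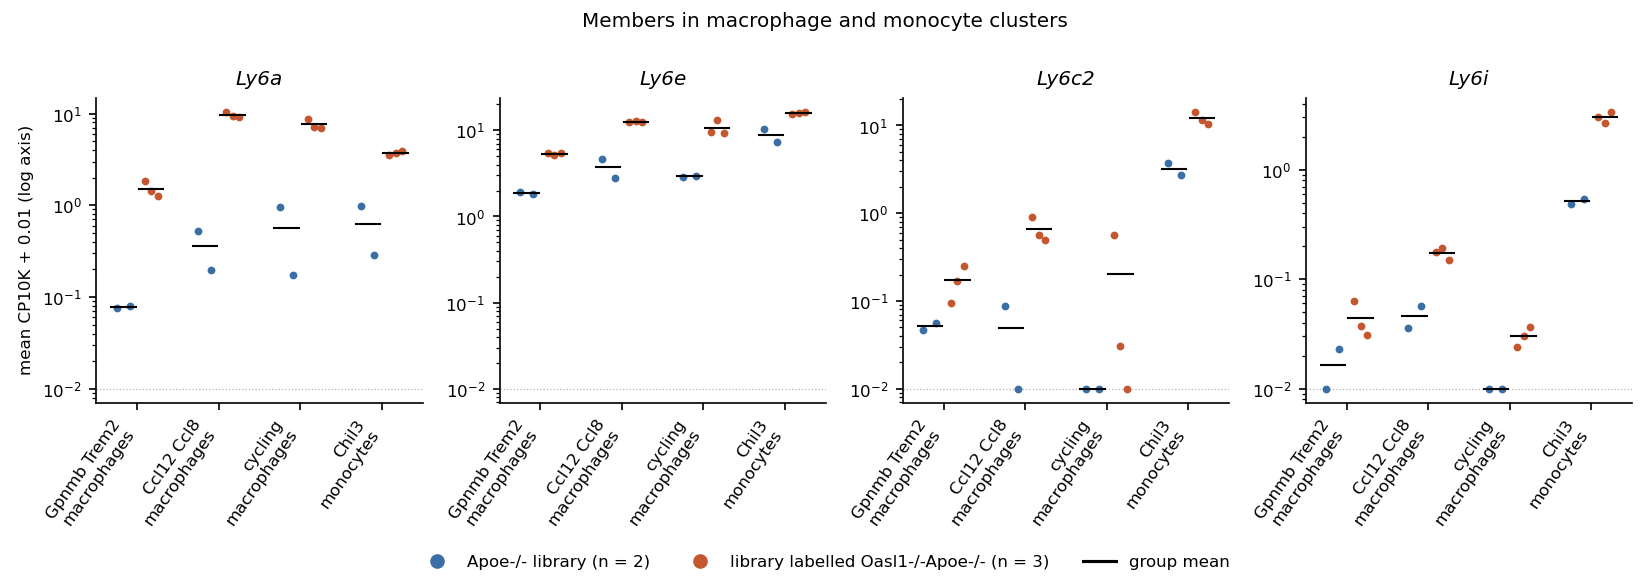
Mean CP10K (vertical log axes, 0.01 added, dotted line at 0) of 4 members in 2 macrophage clusters, cycling macrophages and monocytes, with 1 point per library (blue Apoe-/-, orange labelled Oasl1-/-Apoe-/-) and black bars for group means. Ly6a and Ly6e of the groups are apart in each cluster, the Ccl12 Ccl8 cluster lies above the Gpnmb Trem2 cluster, and Ly6c2 and Ly6i are highest in monocytes.

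Monocytes enter the plaque from blood, and surface Ly6C marks those of the classical, inflammatory kind. Ly6c2 was at 3.69 and 2.70 CP10K in the Apoe-/- libraries and 14.4, 11.6 and 10.5 in the libraries labelled Oasl1-/-Apoe-/-. The means of 3.20 ± 0.704 (SD, n = 2) and 12.2 ± 1.97 (SD, n = 3) differed by 1.92 (SE 0.154) on the log2 scale. Cells with a Ly6c2 UMI were 31.2% (Wilson 95% interval 25.4% to 37.6%) against 52.4% (46.9% to 57.9%), so monocytes without a Ly6c2 UMI were common in both groups. Ly6i was at 0.477 and 0.527 against 3.01, 2.67 and 3.38 CP10K, and its means of 0.502 ± 0.0354 (SD, n = 2) and 3.02 ± 0.351 (SD, n = 3) differed by 2.47 (SE 0.195). Ly6a was at 0.962 and 0.277 against 3.51, 3.73 and 3.88 (2.71, SE 0.294). The Apoe-/- libraries were far apart for Ly6a, and the difference was 1.89 without the second of them and 3.52 without the first. Ly6e was at 10.3 and 7.23 against 15.4, 15.7 and 16.5 (0.87, SE 0.132). Ly6c1 was listed at 0 in the monocytes of both Apoe-/- libraries, which allows a share of cells with a UMI of up to 1.38%, and was at most 0.0292 CP10K in the others, so the Ly6C signal of monocytes was counted on Ly6c2.

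In monocytes limma called all 4 of the members tested higher, where 1.89% of 7672 genes were called higher and 1.76% lower, and 14.1% were higher without overlap. The median log2 difference of the members was 2.19, beside -0.03 over all genes tested. A gate on single cells that asks for at least 3 monocyte markers kept only 22 to 28 cells a library, and there limma called 17 genes in all and 1 member, Ly6c2, with a difference of 2.08. Ly6a then differed by 1.96, Ly6e by 0.91 and Ly6i by 1.11. Markers of monocytes summed to 13.5 to 15.7 and 12.5 to 16.4 CP10K in the groups, and those of macrophages to 32.2 to 42.1 and 27.4 to 37.7. The smooth muscle list was at 18.9 to 25.4 and 2.93 to 8.67 (7 of 8 markers lower, Myocd at 0) and the erythroid list at 36.3 to 98.5 and 0.523 to 15.6 (5 of 5 lower), and their part in these differences was not tested. T cells also make Ly6c2, and the NK/T list in monocytes was at 0 to 0.0463 and 0.0462 to 0.0718 CP10K with Cd3d, Cd3e, Ncr1 and Icos at 0 in all libraries.

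NK/T cells carried Ly6a, Ly6e and Ly6c2. Ly6a, which rises on activated T cells, was at 1.77 and 1.94 CP10K in the Apoe-/- libraries and 6.21, 5.46 and 5.85 in the libraries labelled Oasl1-/-Apoe-/-. The means were 1.85 ± 0.117 (SD, n = 2) and 5.84 ± 0.375 (SD, n = 3), with a log2 difference of 1.63 (SE 0.161), and 19.6% against 49.2% of cells had a UMI. Ly6c2, which marks memory CD8 T cells, was at 3.38 and 3.79 against 4.50, 6.20 and 3.52 (0.36, SE 0.181), and here the groups overlapped. Ly6e was at 6.62 and 5.73 against 8.82, 9.22 and 7.75 (0.47, SE 0.131) without overlap. Limma called 1 of the 4 members tested, Ly6a, where 1.19% of 8266 genes were called higher and 0.52% lower, and 15.3% were higher without overlap. The members' median log2 difference was 0.42 beside 0.06 over all genes. Ly6c1 was tested here only because it passed the filter on low values through the Apoe-/- libraries. It was at 0.211 and 0 against 0.00878, 0.0491 and 0.0487 CP10K (-0.46, SE 0.701), and this count and median rest partly on it.

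A gate on Cd8 and Cd3 genes split the class. In CD8 T cells (120 in the Apoe-/- libraries and 333 in the others) Ly6a was at 1.17 and 1.26 against 5.15, 4.14 and 3.89 CP10K. In T cells with no Cd8 UMI (63 and 148 cells) it was higher in both groups, at 3.96 and 3.59 against 9.12, 7.22 and 11.7. Ly6c2 had the reverse order of cells, with 3.75 and 4.15 against 6.47, 7.33 and 3.60 in CD8 T cells and 2.26 and 2.84 against 1.36, 4.26 and 2.36 in the others, and it overlapped between the groups in each. The NK/T class also differed in other markers: the fibroblast list summed to 0.17 to 0.224 and 1.18 to 2.18 CP10K (3 of 8 markers higher, Clec3b at 0), the macrophage list to 0.413 to 0.74 and 1.01 to 1.38 (1 of 9 higher, Mrc1 and Csf1r at 0), the erythroid list to 64.6 to 72.8 and 0.985 to 28.9 (5 of 5 lower) and the NK/T list itself to 93.1 to 94.3 and 115 to 125 (6 of 9 higher). The part of other cells' RNA in the NK/T differences was not tested, and in fibroblasts the fibroblast list summed to 216 to 251 CP10K.

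Dendritic cells, which present antigen to T cells, had Ly6a at 0.983 and 0.521 CP10K against 5.96, 9.22 and 9.60 (3.40, SE 0.244) and Ly6e at 5.44 and 3.95 against 12.5, 12.5 and 12.7 (1.42). In this class Ly6c2 was at 0.350 and 0.618 against 2.37, 2.55 and 1.37 (2, SE 0.292), and Ly6i at 0.0879 and 0.0906 against 0.425, 0.589 and 0.479 (1.96). None of these overlapped, although Ly6i did in marker-gated cells. Limma called these 4 of 5 members tested, where 1.11% of 7582 genes were called higher and 16.4% were higher without overlap. The other, Ly6c1, overlapped, at 0 and 0.209 against 0.0972, 0.192 and 0 CP10K. In dendritic cells the NK/T list summed to 0 to 0.0478 and 0.0757 to 0.701 CP10K (1 of 9 markers higher, Cd3e and Ncr1 at 0). The smooth muscle list summed to 5.83 to 8.15 and 3.75 to 5.58 (4 of 8 lower). The part of other cells' RNA in the dendritic differences was not tested. The class named fibroblasts had Ly6a at 15.6 and 14 against 20, 19.3 and 17.5 (0.35, SE 0.0862), without overlap. Ly6e of fibroblasts was at 1.88 and 2.02 against 6.31, 6.96 and 6.31 CP10K (1.72, SE 0.1), so the log2 differences of the members were unequal there. Ly6c1 was the sole member with a lower mean in the labelled libraries in these cells, at 4.97 and 5.04 against 3.81, 5.02 and 3.24 (-0.33, SE 0.151), with overlap. The class was made up unequally of a pair of clusters: the one led by Prg4 and Timp1 held 46.5% and 51.0% of fibroblasts in the Apoe-/- libraries and 68.2%, 62.4% and 66.4% in the others, and the one led by Clec3b held the rest. The Prg4 cluster (630 cells, against 382) was named from Dcn, Lum, Pdgfra and Col1a1, without Dpt, Pi16, Serpinf1 or Clec3b. Whether its cells are fibroblasts or altered smooth muscle cells was not tested. Ly6a overlapped in the Prg4 cluster, at 15.8 and 12.5 against 17.7, 12.5 and 12.8, and did not in the Clec3b cluster, at 15.4 and 15.5 against 25, 30.7 and 26.7. Ly6e was higher without overlap in each, at 0.722 and 1.49 against 4.93, 4.19 and 4.76 in the Prg4 cluster and 2.88 and 2.57 against 9.27, 11.6 and 9.36 in the Clec3b cluster. In fibroblasts the monocyte list summed to 1.9 to 1.96 and 3.93 to 5.26 CP10K (2 of 8 markers higher without overlap), the macrophage list to 0.977 to 1.62 and 1.52 to 2.69 (5 of 9 higher, Mrc1 at 0), the smooth muscle list to 30.8 to 35.8 and 41.9 to 48.5 (5 of 8 higher) and the fibroblast list to 222 to 251 and 216 to 230 (6 of 8 lower). The part of these cells' RNA in the fibroblast differences was not tested. Limma called 2 of 3 members tested in fibroblasts, Ly6a and Ly6e, where 2.27% of 9484 genes were called higher and 18.9% were higher without overlap. B cells had overlapping groups for both members counted in them, Ly6a at 2.98 and 5.85 against 3.70, 8.99 and 7.82 and Ly6e at 17.6 and 15.1 against 20.9, 16.5 and 17.8. Smooth muscle cells as clustered were near the floor, with Ly6e at 0.0246 and 0.00976 against 0.0655, 0.106 and 0.105 CP10K (1.08, SE 0.136), a value that ran from 0.19 to 1.94 with offsets of 0.5 and 0.01. Ly6e was the sole member tested there and passed the filter on low values only through the labelled libraries, so nothing is read from its call, beside 4.14% of 8963 genes called higher and 21.1% higher without overlap. With marker gates on single cells Ly6e was at 0.118 and 0.0877 against 0.529, 0.679 and 0.603 CP10K. Ly6a was then at 0.287 and 0.235 against 0.915, 1.06 and 0.912. The macrophage list in smooth muscle cells summed to 0.328 to 0.337 and 0.631 to 0.687 CP10K (5 of 9 markers higher) and the monocyte list to 1.08 to 1.17 and 1.53 to 1.6 (2 of 8 higher), and their part in Ly6e was not tested.

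**Figure D4:**
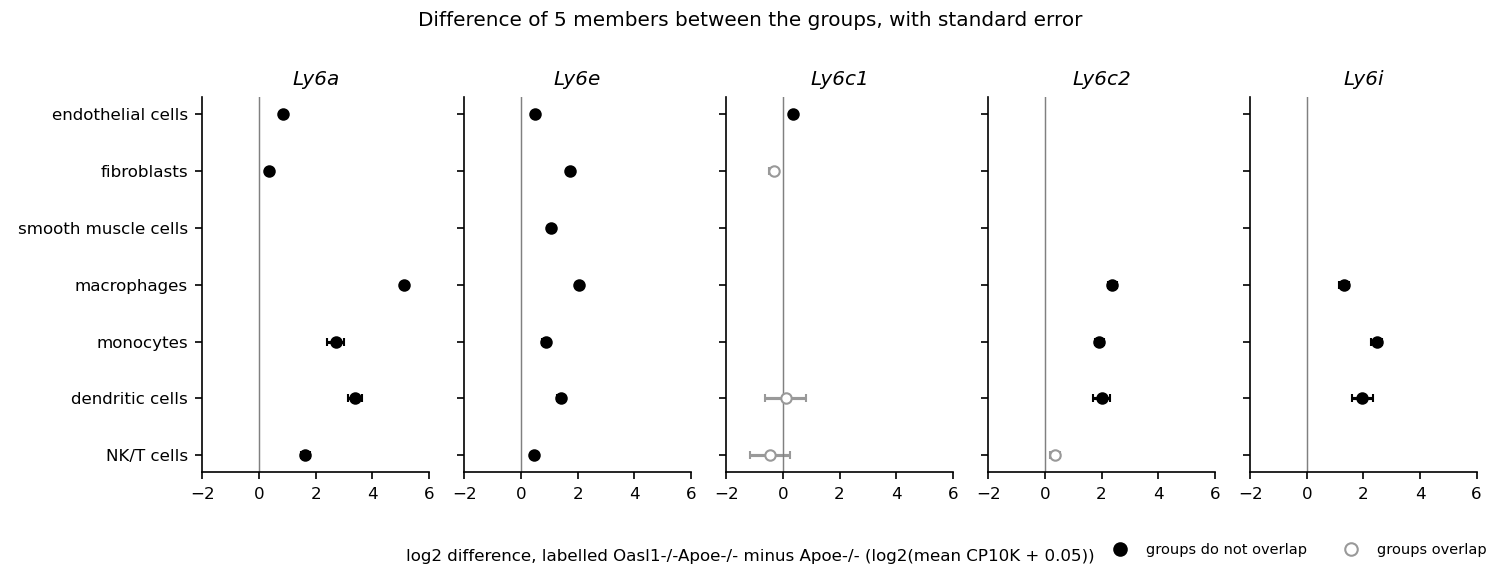
Difference between the groups (horizontal axis, labelled Oasl1-/-Apoe-/- minus Apoe-/- on the scale log2(mean CP10K + 0.05), bars for the standard error) of 5 members in each class where the gene passed the filter on low values, filled where the groups' libraries did not overlap. Ly6a runs from 0.35 in fibroblasts to 5.13 in macrophages, and the open points are Ly6c1 in 3 classes and Ly6c2 in NK/T cells.

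Over the whole aorta Ly6a was at 2.18 and 1.94 CP10K against 5.86, 6.21 and 5.60 (1.49, SE 0.0605) and Ly6e at 2.74 and 2.13 against 6.03, 6.38 and 5.78 (1.31, SE 0.0876). Ly6c2 was at 0.222 and 0.170 against 0.885, 0.894 and 0.675 (1.82, SE 0.12), and Ly6i at 0.0167 and 0.0165 against 0.139, 0.142 and 0.137 (1.51). Ly6c1 was at 1.19 and 1.02 against 1.3, 1.51 and 1.2 (0.26, SE 0.0911). It was the member whose groups lay closest, and its difference was 0.15 without the second Apoe-/- library and 0.17 without the second labelled library, against 0.51 by limma-voom. A level over all cells moves with the shares of cell types, and more cells of a type and more RNA per cell cannot be told apart in it. Limma called 5 of 5 members tested higher over the whole aorta, where 20.5% of 9836 genes were called higher and 20.6% lower, and 28.4% were higher without overlap. Ly6i passed the filter on low values only through the labelled libraries. The cells that held each member's UMIs also changed, and such shares follow cell numbers as well as levels. Endothelial cells numbered 750 in the Apoe-/- libraries and 668 in the others, fibroblasts 201 and 811, and macrophages 599 and 1757. Of 6828 Ly6a UMIs in the Apoe-/- libraries 55.7% were in endothelial cells and 24.2% in fibroblasts, while of 31725 in the others 34.4% were in fibroblasts, 24.9% in endothelial cells and 20.1% in macrophages. For Ly6e the endothelial share was 54.0% of 6522 UMIs and 21% of 27803, and macrophages held 12.1% and 35.1%. Ly6c2 UMIs stayed for the most part in monocytes, with 54.1% of 466 and 53.4% of 2817, while NK/T cells held 30.7% and 17.7%. Ly6i UMIs were few, 56 and 467, with 69.6% and 60.6% in monocytes.

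**Figure D5:**
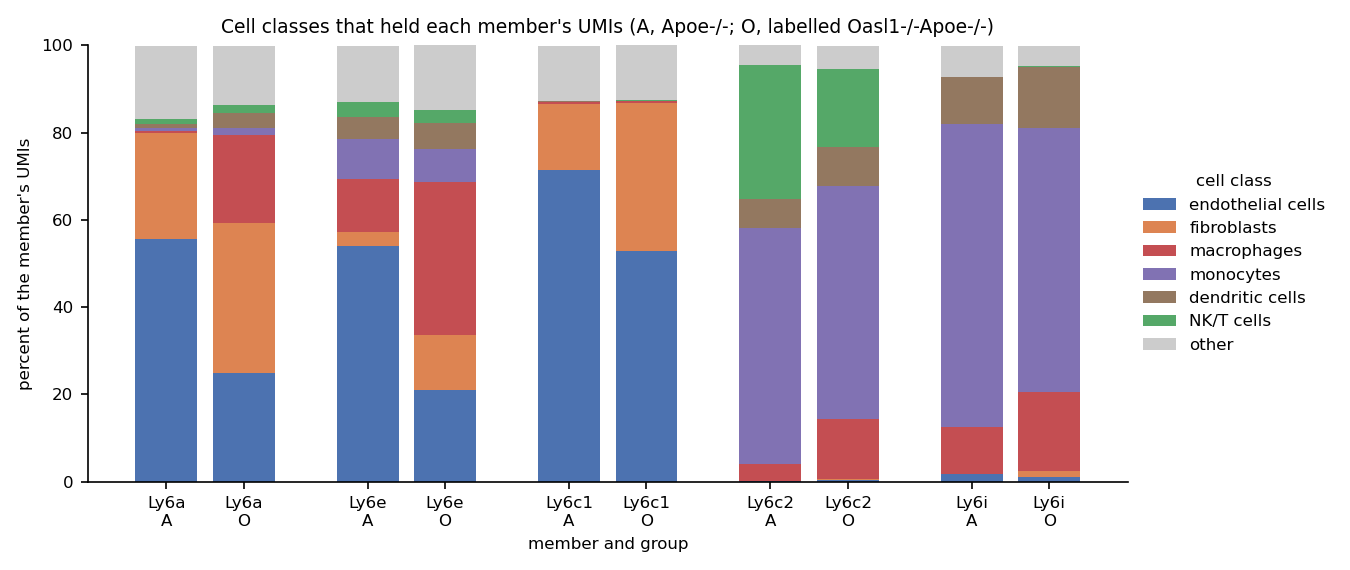
Percent of the UMIs of 5 members (vertical axis, 0 to 100) that lay in each cell class, summed over the 2 Apoe-/- libraries (A) and the 3 libraries labelled Oasl1-/-Apoe-/- (O), with colours for classes. The endothelial share of Ly6a falls from 55.7% to 24.9% and that of Ly6e from 54.0% to 21%, while about the same share of Ly6c2 is in monocytes. Shares follow cell numbers too, and the mean level of Ly6a and Ly6e in endothelial cells was higher in O.

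The genes whose pattern was most like each member were found by Pearson's r of log2(CP10K + 0.05) over 35 points, 7 classes in each of 5 libraries, among 9759 genes. Ly6a was nearest to Gbp2, which encodes an interferon-induced GTPase (r = 0.867), then to Tpm4 (0.838) and H13 (0.827). Ly6e was nearest to Psmb10, an immunoproteasome subunit (0.951), to H2-D1, a class I antigen-presenting molecule (0.931), and to Lgals9 (0.928). The neighbours of Ly6c1 were Fxyd6 (0.976), Ackr3 (0.968) and the prostaglandin transporter gene Slco2a1 (0.968). For Ly6c2 they were Btg1 (0.961), the chemokine receptor gene Ccr2 of classical monocytes (0.948) and Ube2d3 (0.932). Ly6i was nearest to Hcar2 (0.961), Trem1 (0.942) and Gpr141 (0.932), and Gpihbp1 to Tmem252 (0.917), Sprr1a (0.858) and Adgrl4 (0.844). Only the endothelial points of the labelled libraries had Gpihbp1 above 0.0242 CP10K, so its r rests on these few points. Among the members Ly6a and Ly6e were closest (0.796), and Ly6c1 and Ly6c2, despite their sequence, had a correlation of -0.531. Points of 1 library share its depth and points of 1 class share its cells, so no p is given.

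The rest of the family was read for comparison. Of 38 listed genes 16 were in the table, and 6 were tested over the whole aorta, where 2 rose, none fell and the median log2 difference was -0.02 beside -0.03 over all genes. With 20.5% of all genes called higher and 20.6% lower there, 2 of 6 is no result about the list. Slurp1, which encodes a secreted Ly6 protein, was at 0.0205 and 0.0197 CP10K against 0.209, 0.297 and 0.208 (2.02, limma adjusted p = 6.5e-07 over all genes). Plaur, the urokinase receptor that gives the family part of its name, was at 0.564 and 0.451 against 0.95, 0.835 and 0.86 (0.75, SE 0.0863, limma adjusted p = 6.8e-05). Limma called 2.16% of all genes higher and 0.997% lower in endothelial cells, 8.59% and 8.07% in macrophages and 1.89% and 1.76% in monocytes. The list had too few tested genes in these classes for its counts to be read. Plaur was the sole gene of this list called in endothelial cells (1 of 5 tested), macrophages (1 of 2) and monocytes (1 of 1). In monocytes it was higher, at 5.62 and 4.62 against 9.17, 8.05 and 7.91 CP10K (0.71, SE 0.136, limma adjusted p = 0.0026), although it lost that call without the second Apoe-/- library. In endothelial cells it was at 0.591 and 0.345 against 0.705, 0.857 and 0.751 (0.70, limma adjusted p = 0.028). That call was lost without the second Apoe-/- library and without either the second or the third labelled library. In macrophages Plaur was lower instead, at 1.66 and 1.85 against 1.2, 1.17 and 1.15 (-0.56, SE 0.084, limma adjusted p = 0.00027). Of 4 genes tested in NK/T cells limma called none. In fibroblasts 2 of 5 were called, Slurp1 at 0.364 and 0.65 against 2.2, 2.29 and 1.76 CP10K (1.98, SE 0.208, limma adjusted p = 0.00031) and Plaur at 0.347 and 0.349 against 0.838, 0.664 and 0.7 (0.97, SE 0.178, limma adjusted p = 0.0098). In smooth muscle cells 1 of 4 was called, Cd59a, which encodes an inhibitor of complement lysis, at 0.669 and 0.685 against 0.91, 0.831 and 0.905 (0.36, SE 0.0658, limma adjusted p = 0.002). These calls in fibroblasts and smooth muscle cells were chosen for naming after their values were seen. Of all genes, 2.27% were called higher in fibroblasts and 4.14% in smooth muscle cells.

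The enzymes that build and attach the GPI anchor, on which most members depend, were for the most part not called. Of 30 listed 29 were in the table and 18 were tested over the whole aorta, with a median log2 difference of 0.04. There 1 was called higher and 1 lower, below the 20.5% of all genes called higher and 20.6% called lower. Pgap2, which remodels the lipid of the anchor, rose from 0.227 and 0.211 to 0.321, 0.33 and 0.335 CP10K (0.50, limma adjusted p = 0.00013). Pigp, a subunit of the enzyme of the first step, fell from 1.37 and 1.40 to 1.15, 1.18 and 1.14 (-0.25, limma adjusted p = 0.0022). In macrophages 1 of 17 rose (Pgap2, 0.81) and 2 fell (Gpaa1, -0.41, and Mpdu1, -0.49), all named after their values were seen. There 8.59% of all genes tested were called higher and 8.07% lower, so nothing is read from this count. Neither list was chosen without knowledge of these data.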

How the data were processed

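Mouse aortic arch cells from 5 libraries, 2 Apoe-/- and 3 labelled Oasl1-/-Apoe-/-, were grouped by GEO's genotype labels. Per the submitters' processing notes, reads were aligned to mm10 with Cell Ranger 3.1.0 and handled in Seurat 4.0.3; the study's methods add filters on genes and mitochondrial reads and removal of doublets with DoubletFinder, so no further doublet step was taken. The deposited values are natural log values of 1 plus UMIs per 10000 UMIs of the cell, from which the UMIs were recovered (100% of values whole within 0.01). No column of the table was left out. Cells were clustered (2000 variable genes without the members, 12 principal components, 20 neighbours, Leiden resolution 1; endothelial cells again with 6 components) and 19 of 24 clusters were named from at least 3 markers. Library means were compared with limma 3.58.1 (trend) in R 4.3.3 on log2(CP10K + 0.05), for genes with a mean of at least 0.05 CP10K in classes of at least 20 cells in every library, with Benjamini-Hochberg adjusted p under 0.05 over all genes. Other steps used Python 3.11.15, scipy 1.17.1 and leidenalg 0.10.2. The study tested cells with MAST; here libraries, not cells, were the replicates. Intervals are Wilson 95% intervals and, like each limit from a count of 0, cover counting error only. Shares of cells were also given after thinning to 1000 UMIs, which left out 245 of 8416 Apoe-/- cells and 311 of 9844 others.

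The 6 members and the lists (other family genes, GPI anchor, lipoprotein lipase partners) were chosen with earlier results of these data known. Named genes were the members, list genes past the threshold in the whole aorta or the class the list was read in, and the 3 genes most like each member. Alternatives were other offsets, no filter, each library left out, the replicate number as a block, limma-voom, means of the log values, centring, thinning, marker gates on single cells and equal cell type shares. Replicate numbers did not pair libraries: deviations of same-numbered libraries had r of 0.015 and 0.043. The fits were tested on simulated data with known changes.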

Additional observations from a re-analysis of the deposited data

Results flagged for a closer look

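Plaur, Lpl, Cd36 and Fabp4 are given again because every library of one cell class moved in one direction and every library of another class in the opposite direction. The difference between classes was not itself tested, and the same libraries served in each class. Plaur was higher in the libraries labelled Oasl1-/-Apoe-/- in endothelial cells (log2 difference 0.70), monocytes (0.71) and, without passing the limma threshold (adjusted p = 0.72), NK/T cells (0.45), and lower in macrophages (-0.56). Lpl was higher in endothelial cells (1.67) and lower in macrophages (-0.75), where it was at 8.53 and 8.59 against 5.19, 5.06 and 4.98 CP10K. Cd36 was higher in endothelial cells (1.98) and lower in macrophages (-0.61). Fabp4 was higher in endothelial cells (1.56) and lower in macrophages (-2.55) and monocytes (-1.26), at 3.96 and 4.83 against 0.538, 0.763 and 0.841 CP10K in macrophages. The share of the macrophage cluster led by Gpnmb, Trem2 and Lpl moved the same way, from 79.7% and 78.5% of macrophages to 43.7% to 45.7%, and its part in these values was not tested. In endothelial cells much of the difference lay in sub-cluster 6, 3.33% of them in the Apoe-/- libraries and 13.5% in the others. Without it Lpl (log2 difference 0.39) and Cd36 (-0.21) overlapped between the groups, and Fabp4 (0.89) did not.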

How the results depend on the processing

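None of the 25 called member differences turned its sign among 374 values under alternatives, and 31 of these values missed the threshold, most often those of Ly6c1 and of Ly6a in fibroblasts. Over all 30 differences, called or not, 335 of 447 values moved by less than 1 SD of the replicates and 112 by more. With an offset of 0.5 CP10K the log2 differences of low members shrank, to 0.77 for Ly6c2 and 0.24 for Ly6i in macrophages, 0.92 and 0.31 over the whole aorta and, for Ly6i, 0.76 in dendritic cells. Ly6c1 in dendritic cells, not called, ran from -1.31 after thinning to 1.28 without the second Apoe-/- library. In monocytes the marker gate left 1 of 4 members called. In NK/T cells 2 members (Ly6a and Ly6e) were called under the replicate block, by limma-voom and without cells of common barcodes, the last chosen after seeing the data, and 1 to 2 when a library was left out. Of other family genes 4 were called over the whole aorta with no filter (Ly6g6d and Ly6k added). In endothelial cells 0 were called with no filter, by limma-voom, after thinning and without the sub-cluster rich in Gpihbp1, and 0 to 1 without 1 library. In monocytes 0 were called after thinning and in the marker gate, and 0 to 1 without 1 library. In NK/T cells 0 to 1 were called without 1 library. GPI anchor genes called were 4 with no filter and 1 after thinning, and lipoprotein lipase partners 1 after thinning and 1 without that sub-cluster. Each of these counts is small, and the cause of its change was not tested, beyond the smaller number of cells or of genes tested where a step removes them. Under the replicate block the members called were 5 over the whole aorta, 4 in endothelial cells, macrophages and monocytes each and 2 in NK/T cells. The limma fit with marker gates was not run for the whole aorta or for dendritic cells, where the gates kept 15 to 22 cells a library. In gated dendritic cells Ly6i overlapped between the groups, at 0.118 and 0.16 against 0.0968, 0.519 and 0.463 CP10K (log2 difference 0.90). Ly6a, Ly6e and Ly6c2 did not overlap in them. Some orders of cell types also changed with the marker gates, and dendritic cells then overlapped macrophages for Ly6a in the Apoe-/- libraries. With 2 Apoe-/- libraries, leaving out 1 leaves a lone library that is assumed to vary like the others. Depth limits Gpihbp1 and Ly6i, which few cells hold.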

Other observations

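Ly6a did not move one way in every cell group. Of 16 clusters with at least 10 cells in every library and a mean of at least 0.05 CP10K, it was higher without overlap in 11, lower in 1 and overlapping in 4. The cluster where it was lower had no name and was led by Adamtsl1 and Prss12; it held 12 and 53 Ly6a UMIs in the Apoe-/- libraries and 2, 0 and 4 in the libraries labelled Oasl1-/-Apoe-/-, or 0.86 and 2.94 against 0.271, 0 and 0.281 CP10K. Ly6e was higher without overlap in 16 of 18 such clusters and overlapped in 2, and Ly6c2 was higher without overlap in 5 of 8. The share of all genes higher without overlap ran from 13.5% in endothelial cells to 21.1% in smooth muscle cells among the tested classes. It was not computed for single clusters, so nothing is read from these cluster counts. In neutrophils, 115 cells in all with a median of 1002 UMIs, Ly6e was at 2.08 and 2.66 against 7.64, 6.87 and 6.19 CP10K and Ly6c2 at 0 and 1.03 against 1.69, 1.96 and 5.19. Cycling macrophages had Ly6a at 0.951 and 0.163 against 8.72, 7.21 and 7.02 CP10K, where the labelled libraries lay above the 5.76 to 6.54 of the other macrophages.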
